A study of Mus musculus with 13 samples.

Results

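The fibulins and the latent TGF-β binding proteins (LTBPs) are secreted proteins of the elastic fiber and microfibril system, and 10 of their genes were examined for binding by estrogen receptor-α (ESR1): Fbln1, Fbln2, Fbln5, Fbln7, Efemp1, Efemp2, Ltbp1, Ltbp2, Ltbp3 and Ltbp4. They were chosen by gene family out of 43138 annotated genes that had at least 1 peak in their window. The window of a gene was its body in GENCODE vM21 on the mm10 mouse genome plus 10 kb on each side. Over all libraries, 1191 of 686823 ESR1 peaks had their summit in the 10 windows. Peaks that overlapped between libraries were merged into regions, and a region with a peak in at least 3 of the 12 libraries was called a recurrent site. The 10 windows held 91 of the 49642 recurrent sites of the series.

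The peaks came from ESR1 ChIP-Seq, in which DNA bound by the receptor is precipitated and sequenced. The cells were primary skeletal muscle fibroblasts, passaged once, from Aromhum mice, which express human aromatase and so make estradiol in the lower abdominal muscle (LAM), the source of the cells. All cultures were held in serum-free medium, pretreated for 3 hours with fulvestrant or its solvent DMSO, then given estradiol (E2) or ethanol for 1 hour. Each of the 4 treatments had 3 libraries: vehicle (DMSO and ethanol), 10 nM E2, 10 nM E2 plus 100 nM fulvestrant, and 100 nM fulvestrant alone. Fulvestrant is an antagonist that blocks E2 binding and leads to loss of the receptor. Every group therefore carried the same genotype and the same starvation, and no wild-type cells were part of the comparison. Whether the 3 libraries of a treatment came from separate animals was not given in the labels, so p-values measure only the spread between these libraries.

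Fibulins bind elastin, fibrillin and basement membrane proteins, and several of them are needed to assemble elastic fibers. LTBPs hold the TGF-β precursor in the extracellular matrix, from which integrins and proteases release it, and LTBP2 is the member of the family that does not bind latent TGF-β. In fibrotic muscle, fibroblasts are the main source of such matrix proteins. Liganded ESR1 classically binds the estrogen response element (ERE), a palindrome of GGTCA and TGACC with 3 bases between these arms, usually far from transcription start sites (TSSs).

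Sequences are shown for the sites on which the results below turn: the 5 recurrent sites of these genes with an ERE, then 3 sites without one at which the libraries given E2 ranked higher without overlap once E2 replicate 1 and fulvestrant replicate 2 were left out, and 1 promoter site for contrast. They were read from the GRCm38 reference, the assembly of mm10, on the plus strand. Capitals mark the ERE, which was allowed 1 mismatch within 100 bp of the summit, or in sites without an ERE any single GGTCA or TGACC arm. Each stretch is 61 bases long and centered on the ERE or, without one, on the summit.
Ltbp4, 6.73 kb past the 3′ end, chr7:27298404-27298464: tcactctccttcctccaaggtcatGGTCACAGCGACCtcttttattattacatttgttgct
Ltbp2, intron, 21.8 kb into the gene, chr12:84854732-84854792: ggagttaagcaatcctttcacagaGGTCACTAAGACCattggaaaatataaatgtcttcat
Fbln2, 6.99 kb upstream, chr6:91205464-91205524: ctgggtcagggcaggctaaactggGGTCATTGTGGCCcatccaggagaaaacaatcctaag
Fbln2, 4.62 kb past the 3′ end, chr6:91277104-91277164: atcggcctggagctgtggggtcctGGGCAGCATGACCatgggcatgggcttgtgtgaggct
Fbln2, 6.84 kb past the 3′ end, chr6:91279275-91279335: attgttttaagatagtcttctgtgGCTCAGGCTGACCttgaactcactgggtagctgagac
Ltbp1, intron, 44.0 kb into the gene, chr17:75049576-75049636: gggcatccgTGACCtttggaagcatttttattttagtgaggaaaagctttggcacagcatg
Ltbp1, intron, 105 kb into the gene, chr17:75110852-75110912: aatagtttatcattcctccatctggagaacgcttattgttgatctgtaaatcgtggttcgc
Fbln7, 5.99 kb past the 3′ end, chr2:128902994-128903054: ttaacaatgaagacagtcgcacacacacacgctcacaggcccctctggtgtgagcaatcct
Fbln5, promoter, 0.234 kb into the gene, chr12:101818791-101818851: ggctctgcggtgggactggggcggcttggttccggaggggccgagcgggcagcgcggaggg

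None of the 5 EREs was a perfect palindrome. With positions counted from 1 at the 5′ end of the element and the consensus base first, the substitutions were T9C at Ltbp4, T9A at Ltbp2, A11G at the upstream Fbln2 site, and T3G and G2C at the 2 Fbln2 sites past the 3′ end. An ERE stood near the summit of 5.49% of the 91 sites and of 3.13% of all recurrent sites. A single arm, a far looser match, was found at 35 of the 91 sites, or 38.5%, against 36.3% of all sites. The exact AP-1 motif TGANTCA, searched in the same windows, was present at 3 of the 91 sites (3.30%, against 9.46% of all sites), and the intronic Ltbp2 site held both motifs. These matches describe letters in the reference and no more.

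The strength of a peak was given by the authors as a fold enrichment over local background, and its place in its own list was expressed here as a rank percentile. The strongest peak of a list had a percentile of 0, and a library without a peak at a site was given 100. Lists held from 34293 to 104571 peaks. Background levels recovered from the peak statistics gave 10 libraries a relative depth between 92.0% and 106% of the median, fulvestrant replicate 2 one of 75.8%, and E2 replicate 1 one of 39.1%. In E2 replicate 1, 59.4% of peaks lay in repeat-masked sequence, and in fulvestrant replicate 2 27.9%, against 5.57% to 7.79% in the others. E2 replicate 1 had a peak at 37 of the 91 sites, whereas the other E2 libraries had 72 and 76. It had a peak at 25.0% of all ERE sites, fewer than any vehicle library (43.1% to 57.3%), although it had 6 peaks at Pgr, a known E2 target, where vehicle libraries had 4, 2 and 4. By its ERE sites the library labelled E2 replicate 1 thus stood apart from the other 2 libraries with that label. Its peak number at Pgr lay between those of the vehicle libraries and the 8 peaks in each of those 2. That number came from the longest list and was not adjusted for length. The lists offer no further check of the label. It is called E2 replicate 1 throughout, as labelled. Results that rest on it or on fulvestrant replicate 2 are given with and without them, except where stated.

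ESR1 peaks were found at every one of the 10 loci, with a wide range in number. Fbln2 had the most, between 13 and 40 peaks per library, and 23 recurrent sites in a window of 80.1 kb. Efemp1, in contrast, had 0 to 6 peaks per library and 4 sites. Relative to window length, recurrent sites ranged from 0.319 per 10 kb at Ltbp1, the longest gene of the group, to 2.87 per 10 kb at Fbln2, with 2.80 at Efemp2 and 2.66 at Ltbp3. Most regions were weakly shared. Of 256 merged regions in the windows, 129 were found in 1 library only, 165 in fewer than 3, and 16 in all 12.

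**Figure D1:**
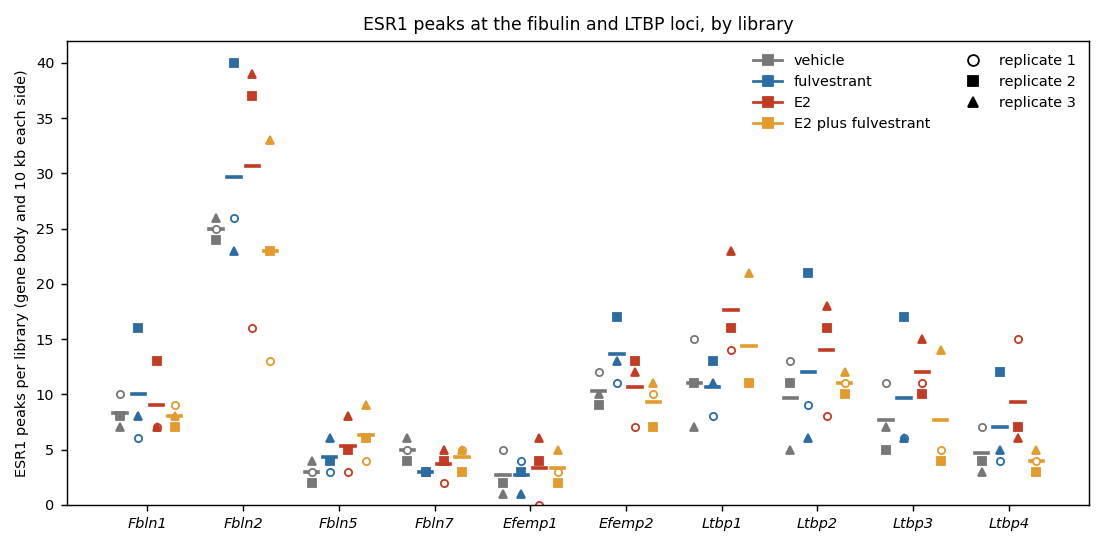
Number of ESR1 peaks (y axis) with a summit in the gene body or 10 kb on each side of each gene (x axis). Each symbol is 1 library, colored by treatment and shaped by replicate, and the short line is the mean of 3 libraries. Fbln2 stands above the other loci in most libraries, and the treatments overlap at 9 of the 10 loci for E2 against E2 plus fulvestrant, with Ltbp4 as the exception.

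The total number of peaks at a locus did not separate libraries given E2 (E2 and E2 plus fulvestrant, n = 6) from those not given it (vehicle and fulvestrant, n = 6) at any of the 10 genes, against 1.98% of all genes with a raw p of at most 0.05 in a two-sided exact permutation test. The largest difference was at Ltbp1, with 16.0 ± 5.06 peaks given E2 and 10.8 ± 2.99 without (SD, n = 6 each, exact permutation p = 0.0693). The smallest p this test allows is 0.00216. Ltbp4 was the one gene whose E2 libraries all exceeded all E2 plus fulvestrant libraries. Ltbp4 had 15, 7 and 6 peaks with E2 against 4, 3 and 5 with E2 plus fulvestrant, and 2.89% of all genes showed such a separation. The E2 library with 15 peaks was replicate 1, and the separation was lost when repeat-masked peaks were removed or peaks were counted per 10000 in the list. Paired by library number, E2 exceeded E2 plus fulvestrant in 3 of 3 pairs at 4 of the 10 genes, Fbln2, Ltbp1, Ltbp3 and Ltbp4 (40%, against 6.32% of all genes). In each pair the E2 list was the longer, with 104571, 60910 and 68971 peaks against 40939, 50869 and 66218. The paired count was not run per 10000 peaks. Its background covers every gene with at least 1 peak and was not matched to loci with as many peaks. Ltbp4 had 7, 4 and 3 peaks in the vehicle libraries, so the E2 libraries overlapped vehicle.

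Among the fibulins, the site nearest the top of the lists was usually a promoter site that had a peak in all 12 libraries. A promoter site had its summit within 3 kb of an annotated TSS, which could be that of the gene itself or of a neighbor. At Fbln2, which encodes a fibulin of basement membranes and elastic fibers, the site 0.604 kb into the gene lay at a percentile between 0.850 and 6.69 in all 12 libraries. Its fold enrichment was 5.61, 4.14 and 5.35 with vehicle, 10.4, 8.08 and 8.49 with E2, and 6.18, 6.05 and 4.49 with E2 plus fulvestrant. With fulvestrant alone it was 6.78, 10.8 and 5.53. By fold enrichment every E2 library thus exceeded every vehicle and E2 plus fulvestrant library. E2 overlapped fulvestrant alone only through fulvestrant replicate 2. The percentile differed by 1.18 points between libraries given and not given E2 (exact permutation p = 0.273).

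Fbln1, whose product is found in microfibrils and basement membranes, had its leading site 0.343 kb into the gene at percentiles between 3.11 and 20.04. Summits in that merged region spread over 2029 bp, and 2 of 12 fell within 100 bp of the strongest. Efemp2, which encodes the fibulin needed for collagen and elastin cross-linking, was led by a site 1.17 kb into the gene at percentiles of 1.09 to 12.5. These sites were thus among the strong peaks of every list with or without E2. Efemp2 also shared its window with other genes: 1 site at percentiles of 1.14 to 16.6 lay 388 bp from the TSS of the neighbor AC126029.2, and binding there cannot be assigned to Efemp2.

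Fbln5 encodes a fibulin that tethers elastin to cells and is required for elastic fiber formation. Its promoter site, 0.234 kb into the gene, was present in all libraries at percentiles of 17.3, 9.40 and 11.6 with vehicle and 5.42, 9.31 and 8.09 with E2. With E2 plus fulvestrant the percentiles were 19.2, 28.9 and 13.4, and with fulvestrant alone 9.49, 4.85 and 8.14. The E2 libraries ranked above the vehicle and the E2 plus fulvestrant libraries with no overlap, whereas E2 plus fulvestrant ranked below fulvestrant alone with no overlap. The smallest p for 3 libraries against 3 is 0.1, so no such separation could reach 0.05.

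Within the introns of Fbln5, binding was weaker and differed more between libraries. The site 41.4 kb into the gene had percentiles of 40.1, 85.5 and 36.7 with E2 and absent, absent and 93.8 with E2 plus fulvestrant, and no library without E2 had a peak there. All 3 E2 libraries thus ranked above every other library, although the peaks were weak (given against not given E2, exact permutation p = 0.0606). The site met the limit of 3 libraries only through libraries given E2. Its order and p therefore follow in part from that filter. Another weak site 25.6 kb into the gene had a peak in 4 of 6 libraries given E2 and in 1 of 6 not given it (exact permutation p = 0.106).

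Fbln7, which encodes a cell adhesion protein of the family, was bound most strongly 5.99 kb past its 3′ end. Fold enrichment there was 6.36, 6.42 and 4.62 with vehicle and 16.4 and 20.6 in E2 replicates 2 and 3, with no peak in E2 replicate 1. It was 9.56, 14.7 and 17.1 with E2 plus fulvestrant and 4.69, 3.64 and 6.71 with fulvestrant. Hence the 5 libraries given E2 that had the peak all exceeded every library not given E2, and placed it at percentiles of 0.231 to 1.02. With E2 replicate 1 counted as absent, the mean percentile was 17.1 ± 40.6 given E2 and 9.91 ± 9.31 without (SD, n = 6 each, exact permutation p = 1). Without E2 replicate 1 and fulvestrant replicate 2, it was 0.549 ± 0.296 and 6.60 ± 5.10 (SD, n = 5 each, exact permutation p = 0.00794, the smallest p that 5 against 5 allows). The direction at Fbln7 therefore rested on E2 replicate 1, and also on the measure: with all 12 libraries, mean log2 fold enrichment, with an absent peak at 0, differed by −0.872 for not given minus given E2 and so was higher given E2 (exact permutation p = 0.238). All 11 summits fell within 122 bp of each other. At the Fbln7 promoter a weak site had a peak in 3 of 12 libraries.

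The upstream ERE site of Fbln2 gave a like picture. Its fold enrichment was 4.12, 2.46 and 2.84 with vehicle, 4.11, 12.5 and 12.7 with E2, and 6.08, 13.4 and 9.25 with E2 plus fulvestrant. With fulvestrant alone it was 3.36, 4.66 and 4.38. All 12 libraries had a peak in this region of 4524 bp, but their summits spread over a distance of 2727 bp. All 6 libraries given E2 had their summit within 100 bp of the strongest one, and 3 of the 6 not given E2 did. E2 replicate 1 stood at a percentile of 38.6, among the libraries not given E2, and the other 5 given E2 lay between 0.499 and 3.95. The mean percentile was 7.65 ± 15.2 against 27.8 ± 22.05 (SD, n = 6 each, exact permutation p = 0.0736), and 1.46 ± 1.42 against 31.0 ± 23.1 without the 2 libraries (SD, n = 5 each, exact permutation p = 0.00794).

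The other 2 Fbln2 sites with an ERE were not called with all libraries or without the 2. The site 4.62 kb past the 3′ end had peaks in 11 libraries at percentiles of 10.2 to 77.0, and its mean was 47.0 given E2 and 33.4 without (exact permutation p = 0.418). At the site 6.84 kb past the 3′ end, 4 of 6 libraries given E2 and 2 of 6 not given it had a peak, at percentiles between 55.4 and 89.8 (exact permutation p = 0.5996). A site 26.1 kb into Fbln1 had a peak in every library, with percentiles of 9.11 to 49.7 given E2 and 13.9 to 45.7 without (exact permutation p = 0.201). Without the 2 libraries its means were 16.1 ± 5.15 given E2 and 35.6 ± 9.02 without (SD, n = 5 each, exact permutation p = 0.0159). Its summits spread over 2395 bp, and 4 of 12 fell within 100 bp of the strongest. The merged region thus joined peaks at different places. Efemp1, which encodes fibulin-3 (FBLN3) and had the fewest peaks, was led by an intronic site 56.1 kb into the gene. It ranged from percentile 7.07 to absent given E2 and from 16.2 to 80.5 without (exact permutation p = 0.429). The paper describes FBLN3 as directly induced by E2 through ESR1, and expression was not examined here.

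**Figure D2:**
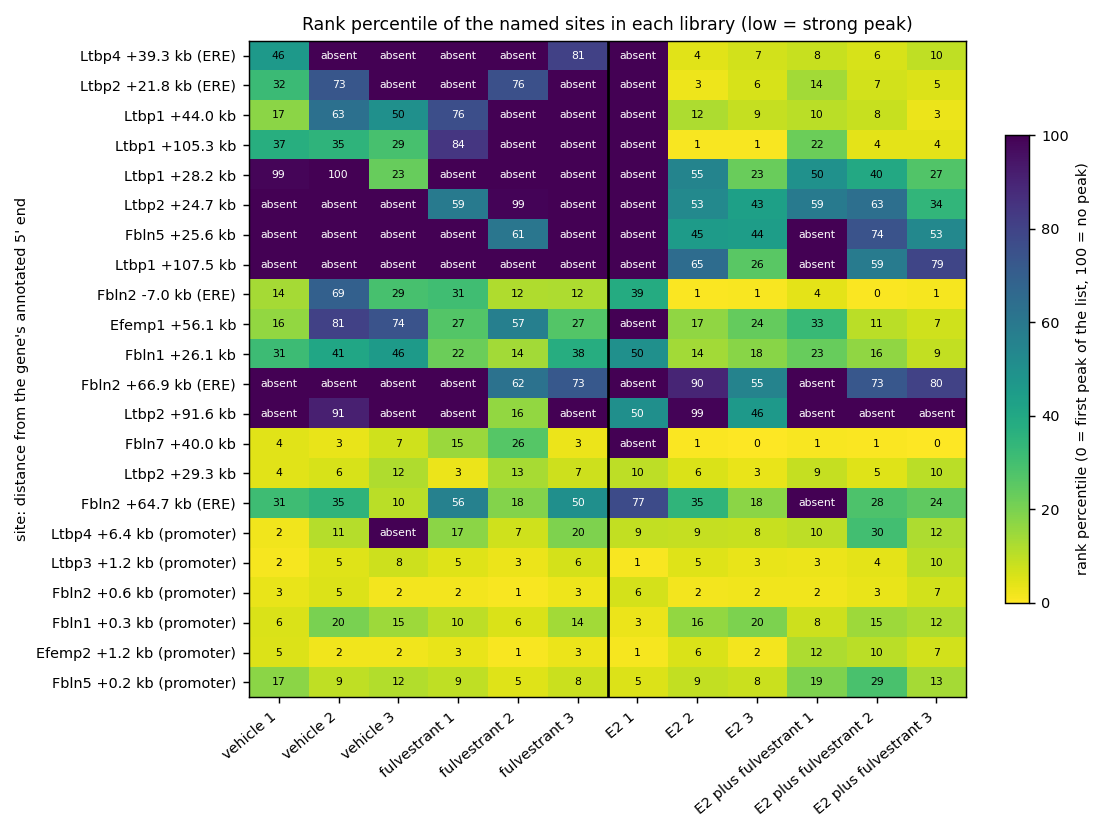
Rank percentile (color and printed number, 0 for the first peak of a list and 100 for no peak) of 22 sites in the 12 libraries, named by gene and distance from its 5′ end. Libraries left of the black line were not given E2 and those right of it were. The upper rows are dark on the left and bright on the right except for E2 replicate 1. The promoter sites at the bottom are bright in most libraries, but the Ltbp4 promoter site is absent in vehicle replicate 3.

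Among the LTBPs, Ltbp3 resembled the fibulins in having a strong promoter site. Ltbp3, which encodes a carrier of latent TGF-β, had its leading site 1.24 kb into the gene in all 12 libraries at percentiles of 0.902 to 10.3. The means were 4.41 ± 3.16 given E2 and 4.74 ± 2.20 without (SD, n = 6 each, exact permutation p = 0.838). No site of Ltbp3 was called in either direction. Ltbp2, which encodes a microfibril protein, had its leading site 29.3 kb into the gene at percentiles of 2.90 to 13.02. All the bases within 100 bp of that summit were repeat-masked, and the part of the repeat in this rank was not tested. The leading site of Ltbp4, 2.27 kb from a TSS and 60.2% repeat-masked, had a peak in 11 libraries and means of 13.1 ± 8.57 given E2 and 26.2 ± 36.7 without (SD, n = 6 each, exact permutation p = 0.615).

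Ltbp4, which encodes the LTBP most closely tied to elastic fiber assembly, held the site with the largest difference. At the ERE past its 3′ end, vehicle libraries had percentiles of 46.3, absent and absent, and fulvestrant libraries had absent, absent and 80.5. E2 libraries had absent, 4.47 and 6.72, and E2 plus fulvestrant libraries had 8.21, 5.95 and 9.58. Thus 5 of the 6 libraries given E2 had a peak in the top 10% of their list, and 2 of the 6 not given E2 had a weak one. The mean percentile was 22.5 ± 38.0 given E2 and 87.8 ± 21.8 without (SD, n = 6 each, exact permutation p = 0.0152, Benjamini-Hochberg adjusted over all recurrent sites 0.621). In the libraries that had a peak, fold enrichment was 8.27 and 7.56 with E2, 5.66, 6.60 and 5.66 with E2 plus fulvestrant, 2.99 in the vehicle library and 2.26 in the fulvestrant library. Without the 2 libraries the means were 6.98 ± 1.98 and 85.4 ± 23.4 (SD, n = 5 each, exact permutation p = 0.00794).

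The intronic ERE site of Ltbp2 came next. Vehicle libraries had percentiles of 32.0, 73.2 and absent, fulvestrant libraries absent, 75.5 and absent, E2 libraries absent, 2.64 and 6.02, and E2 plus fulvestrant libraries 13.8, 6.78 and 5.12. Every library given E2 except replicate 1 ranked above every library not given it. The mean was 22.4 ± 38.2 given E2 and 80.1 ± 26.7 without (SD, n = 6 each, exact permutation p = 0.0238, adjusted 0.621). A second intronic site of Ltbp2, 24.7 kb into the gene, had weak peaks in 5 of 6 libraries given E2, at percentiles of 34.2 to 63.4, and in 2 of 6 not given it (exact permutation p = 0.0303, adjusted 0.621). Its summits spread over 1052 bp, and 1 of 7 fell within 100 bp of the strongest, so the merged region joined peaks at different places.

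Ltbp1, which encodes the LTBP that targets latent TGF-β to fibronectin and fibrillin, had intronic sites without an ERE. At 44.0 and 105 kb into the gene, every library given E2 except E2 replicate 1 ranked above every library not given it. The order of E2 and E2 plus fulvestrant differed between these sites. At 44.0 kb into the gene, vehicle libraries had percentiles of 17.4, 63.3 and 49.8 and E2 libraries absent, 12.4 and 8.77. E2 plus fulvestrant libraries had 10.2, 8.34 and 2.80, and fulvestrant libraries 76.1, absent and absent. The mean was 23.8 ± 37.5 given E2 and 67.8 ± 31.7 without (SD, n = 6 each, exact permutation p = 0.0476, adjusted 0.621). This call was near the threshold: p lay between 0.0541 and 0.102 when any 1 library other than vehicle replicate 1 or E2 replicate 1 was left out.

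The site 105 kb into Ltbp1 gave the highest enrichment of that gene. Its fold enrichment was 3.18, 3.20 and 3.23 with vehicle, 12.4 and 12.7 in E2 replicates 2 and 3 with no peak in replicate 1, and 3.96, 6.502 and 6.73 with E2 plus fulvestrant. With fulvestrant 1 library had a peak, at 2.31. E2 replicates 2 and 3 thus exceeded E2 plus fulvestrant, which exceeded vehicle, which exceeded fulvestrant, in the libraries with a peak. The mean percentile was 22.1 ± 39.004 given E2 and 64.2 ± 34.0 without (SD, n = 6 each, exact permutation p = 0.0758), and 6.52 ± 9.01 against 57.1 ± 32.6 without the 2 libraries (SD, n = 5 each, exact permutation p = 0.00794). The internal promoter of Ltbp1, where a site lay 0.332 kb from an annotated TSS and 174 kb into the gene, showed no such difference, with means of 44.0 given E2 and 43.9 without (exact permutation p = 0.996).

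**Figure D3:**
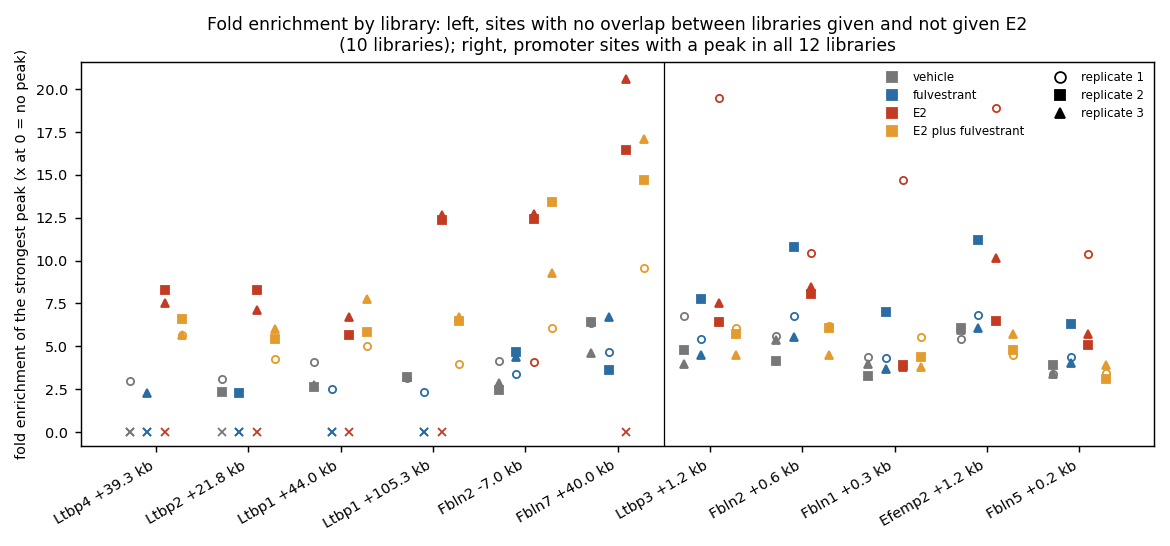
Fold enrichment over local background (y axis) of the strongest peak in each library. To the left of the line are the 6 sites at which the libraries given E2 did not overlap those not given it once E2 replicate 1 and fulvestrant replicate 2 were left out, and to the right the 5 leading promoter sites with a peak in all 12 libraries. On the left E2 replicates 2 and 3 and the E2 plus fulvestrant libraries lie above vehicle and fulvestrant at each site. On the right the E2 libraries lie above vehicle and E2 plus fulvestrant at Fbln2, Fbln5 and Efemp2, but overlap fulvestrant alone. At Ltbp3 the E2 libraries lie above E2 plus fulvestrant but overlap vehicle and fulvestrant alone, and at Fbln1 the treatments mix. E2 replicate 1 gives the highest value at Ltbp3, Fbln1, Efemp2 and Fbln5.

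Across the 91 sites, 4 ranked higher in libraries given E2 at a raw p of at most 0.05, all in Ltbp1, Ltbp2 and Ltbp4. This was 4.40% of the sites, against 4.58% of all recurrent sites, so the share at these genes was near the background. No site ranked lower given E2, against 0.649% of all sites. Leaving out the 2 libraries gave 11 sites higher (12.1%, against 14.0% of all sites) and 0 lower (against 0.759%). These 11 comprised 4 sites in Ltbp1, 2 in Ltbp2 and 1 each in Ltbp4, Fbln1, Fbln2, Fbln5 and Fbln7, and were singled out after their values were seen. The Ltbp1 site 107 kb into the gene met the limit of 3 libraries only through libraries given E2, so its call follows in part from that filter. None of the 11 was a promoter site, and 8 were intronic. At 6 of the 91 sites (6.59%, against 4.59% of all sites) the 5 libraries given E2 lay entirely above the 5 not given it. No site in the genome had an adjusted p of at most 0.05 in either comparison, the smallest being 0.621 and 0.167, and 2598 sites had a raw p of at most 0.05 with all 12 libraries.

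Of the 40 LTBP sites, 29 had a better mean rank given E2, and of the 51 fibulin sites 30 did. For all 91 the share was 64.8%, against 67.9% of all recurrent sites, and the median difference was −4.40 percentile points against −6.19. At the 23 promoter sites 0 were called, against 1.67% of all promoter sites, and the median difference was 1.18 points, against −0.937. The 68 other sites held all 4 calls (5.88%, against 6.14% of all such sites) and had a median of −6.21, against −9.66, so both shares were near the background. Without the 2 libraries the member medians were −0.756 at promoter sites and −10.2 at the others, against −2.73 and −13.1 over all recurrent sites. The 5 ERE sites held 2 of the 4 calls, and over the whole series 19.4% of 1553 ERE sites were called higher given E2, or 56.1% without the 2 libraries. GC content within 100 bp of the summit was 60.7% to 72.6% at the leading promoter sites of Fbln1, Fbln2, Fbln5, Efemp2 and Ltbp3 and 40.3% to 56.2% at the 6 sites that separated.

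**Figure D4:**
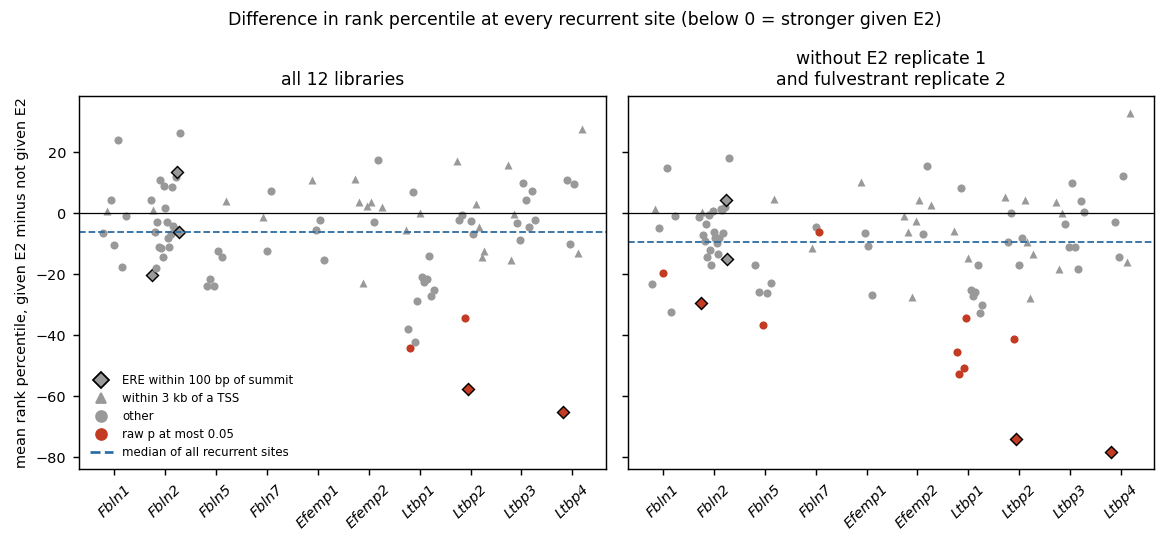
Mean rank percentile given E2 minus that not given E2 (y axis, percentile points, below 0 for a higher rank given E2) at each of the 91 recurrent sites, grouped by gene, with all 12 libraries at left and 10 libraries at right. Red marks a raw exact permutation p of at most 0.05, diamonds an ERE, triangles sites within 3 kb of a TSS, and the dashed line the median of all recurrent sites. The lowest points in both panels are the ERE sites of Ltbp4 and Ltbp2, and the triangles lie around 0.

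Presence alone gave few differences. At 4 of the 91 sites (4.40%, against 7.67% of all recurrent sites) no library without E2 had a peak, and 3 of these were intronic sites of Ltbp1, the other being in Fbln5. All 4 met the limit of 3 libraries only through libraries given E2, so their pattern follows in part from that filter. No site was absent from all libraries given E2, against 0.417% of all sites. A single site, 91.6 kb into Ltbp2, had a peak in 3 of 3 E2 and 0 of 3 E2 plus fulvestrant libraries (1.10% of the sites, against 0.953%). Its percentiles with E2 were 50.4, 99.0 and 45.8, so all were weak peaks. The reverse was found at 0 sites, against 0.336%.

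Of the sites described above, the ERE sites of Ltbp4, Ltbp2 and upstream of Fbln2 and the Fbln7 site had a peak in 3 of 3 E2 plus fulvestrant libraries. By rank, 9 of the 91 sites were higher in every E2 library than in every E2 plus fulvestrant library (9.89%, against 5.67% of all sites), and 0 were lower (against 1.56%). These were in Fbln2 (1), Fbln5 (2), Efemp2 (1), Ltbp2 (2) and Ltbp4 (3), and included promoter sites of Fbln5, Efemp2 and Ltbp4. A promoter site at Ltbp2 was also among them. It lay 97 bp from the TSS of the neighbor D030025P21Rik and 613 bp from that of Ltbp2, so binding there cannot be assigned to Ltbp2 alone. At Efemp2 the percentiles were 1.48, 5.75 and 1.77 with E2 against 12.5, 10.3 and 6.71 with E2 plus fulvestrant. At the Ltbp4 promoter, 0.232 kb from a TSS, they were 6.26, 26.2 and 37.9 against absent, absent and 49.4. None of the 4 sites called for libraries given E2 was among these 9. E2 replicate 1 had the lowest percentile of the E2 libraries at the Efemp2 and Ltbp4 promoters, and all 9 separations stood without it, since leaving a library out of groups that do not overlap cannot join them. Without E2 replicate 1, 21 of 87 sites were higher with E2 (24.1%, against 20.97% of all sites), and without fulvestrant replicate 2 as well 22 of 82 (26.8%, against 21.6%). When libraries were paired by their number, E2 ranked higher in 3 of 3 pairs at 10 of the 91 sites (11.0%, against 11.1% of all sites) and lower at 2 (2.20%, against 6.17%), the latter being Efemp1 56.1 kb and Ltbp1 44.0 kb into the gene.

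Against vehicle, E2 ranked higher without overlap at 5 sites (5.49%, against 5.87% of all sites), 2 each in Fbln2 and Fbln5 and 1 in Ltbp4. Without E2 replicate 1 this became 30 of 87 sites (34.5%, against 35.7% of all sites), and without fulvestrant replicate 2 as well 32 of 82 (39.02%, against 36.5%), so the count rested on that library while the share remained near the background. It ranked lower at 1 site, 33.2 kb into Fbln1 (1.10%, against 0.616%), with percentiles of 61.7, 59.8 and 70.5 with vehicle and absent, 75.6 and absent with E2. Fulvestrant alone ranked below vehicle at 4 sites (4.40%, against 1.70% of all sites), namely the Ltbp1 sites 28.2, 44.0 and 105 kb into the gene and an Ltbp2 intronic site 14.3 kb into the gene. At the last the percentiles were 29.2, 21.2 and 13.3 with vehicle and 59.8, 31.2 and 32.5 with fulvestrant. At Ltbp1 28.2 kb vehicle libraries had 98.7, 99.7 and 23.2, and no fulvestrant library had a peak. Vehicle replicates 1 and 2 there stood at the bottom of their lists, so that separation was slight. The count was not repeated without fulvestrant replicate 2. Fulvestrant ranked above vehicle at 0 sites, against 4.15% of all sites. The vehicle libraries serve both comparisons, and the E2 libraries serve this and the preceding ones, so these counts are not independent.

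Fbln5, Fbln7 and Ltbp1 are in the list of E2-responsive genes that the study built in part from these libraries, so their direction here is not independent evidence for that list. That list set E2 against E2 plus fulvestrant, whereas the directions given above for Fbln7 and Ltbp1 pool both as libraries given E2. By rank, E2 and E2 plus fulvestrant overlapped at the Fbln7 site and at Ltbp1 44.0 kb, with and without E2 replicate 1. At Ltbp1 105 and 174 kb, E2 ranked higher without overlap only once E2 replicate 1 was left out, as at 20.97% of all sites. At Fbln5, E2 ranked higher without overlap with all libraries at the promoter and 41.4 kb into the gene, as at 5.67% of all sites. The latter Fbln5 site carries the limit of the filter given above. For context, 23 other genes of the elastic fiber and TGF-β release system (elastin, fibrillins, lysyl oxidases, microfibril proteins, TGF-β ligands, ADAMTS proteases and integrins) held 186 recurrent sites. Of these, 9 (4.84%, against 4.58% of all sites) ranked higher given E2 and 2 (1.08%, against 0.649%) lower, so the higher share was near the background: 3 higher in Fbn1, 2 in Loxl2 and 1 each in Eln, Tgfb2, Thsd4 and Itgav, and 1 lower each in Eln and Loxl1. By peak number, Tgfb2 and Itgb6 had a raw p of 0.0130 and 0.0173 for libraries given E2, and E2 exceeded E2 plus fulvestrant without overlap at Fbn2, Tgfb2, Thsd4 and Lrrc32, as it did at 2.89% of all genes. At the known E2 targets, 4 of 7 sites in Pgr and 1 of 4 in Greb1 were called higher given E2.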

How the data were processed

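The authors used Trimmomatic 0.39 for trimming, Bowtie2 for alignment to mm10, Picard 2.21.4 for duplicate removal and MACS2 for peak calling. The deposited lists, 1 per library, gave each peak's fold enrichment as a ratio, a score (not used here), and the −log10 of its p-value and q-value, all computed by the authors. Read counts were not used here, so the study's count model and batch adjustment could not be run, and the labels gave no batch. The smallest −log10 p of a list was 2.00 to 2.04, between 5.64% and 26.1% of its peaks had a q-value over 0.05, and all deposited peaks were used. The input sample was not analysed here.

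Peaks were ranked within a list by −log10 q, and merged over libraries where they overlapped by at least 1 bp. A site was assigned to a gene by its summit. Exact permutation tests, two-sided and based on mean percentiles, covered 924 arrangements for 6 libraries against 6, 252 for 5 against 5, and 20 for 3 against 3, and were run over all 49642 recurrent sites. Library numbers were taken as pairs for E2 against E2 plus fulvestrant, although the labels do not say what a number marks. Between these treatments the deviations of same-numbered libraries correlated by 0.101 to 0.254 in 3 of 3 pairs. Different numbers gave −0.220 to 0.129, so the ranges overlapped and the pairing is uncertain. For 3 against 3, a site was counted when the groups did not overlap. The script was tested on simulated data. Python 3.11.15, numpy 2.4.6, pandas 2.3.3 and pysam 0.24.0 were used. Relative depth was the background recovered under the caller's Poisson model divided by the shortest peak. No list gives reads, so precision is limited by the number of libraries.

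Named were all 10 genes, and for each the site with the lowest mean percentile, every site called given E2, every site present in each E2 library but absent with E2 plus fulvestrant, or the reverse, and every ERE site. Sites called without E2 replicate 1 and fulvestrant replicate 2 were added after the values were seen. The genes and lists were chosen with earlier results of these data known. Alternatives covered q-value, repeats, measure, merging, recurrence, window, a replicate block and each library left out.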

Additional observations from a re-analysis of the deposited data

Results flagged for a closer look

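At the Fbln5 promoter site the E2 libraries ranked above vehicle without overlap, and the E2 plus fulvestrant libraries ranked below fulvestrant alone without overlap. The 2 differences in mean percentile differed by 18.2 points, and this difference was not tested. Of all recurrent sites, 286 (0.576%) showed such opposite movements.

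In 16 of 44 groups of 6 libraries at the named sites, 1 library stood apart from the other 5 by a gap, as a share of the range of its group, over the 95% critical value of Dixon's test (where chance gives about 1 in 20, and where absent peaks sharing 1 value widen such gaps). E2 replicate 1 was that library in 8 of the groups given E2. The gap was 0.992 of the range at Fbln7 past the 3′ end, 0.947 at the Ltbp4 ERE, 0.910 at the upstream Fbln2 ERE, 0.901 at Ltbp1 44.0 kb, 0.885 at the Ltbp2 ERE, 0.783 at Ltbp1 105 kb, 0.724 at Efemp1 and 0.655 at the intronic Fbln1 site. E2 plus fulvestrant replicate 2 stood apart at the leading Ltbp4 site (0.820). Among libraries not given E2, vehicle replicate 3 stood apart at Ltbp1 28.2 kb (0.983) and at the leading Ltbp4 site (0.824), vehicle replicate 1 at the Ltbp4 ERE (0.637), vehicle replicate 2 at the upstream Fbln2 ERE (0.675), fulvestrant replicate 2 at Fbln5 25.6 kb (1.00) and Ltbp2 91.6 kb (0.897), and fulvestrant replicate 1 at Ltbp2 24.7 kb (0.975).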

How the results depend on the processing

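The direction and side of the threshold at the 22 named sites were kept in 353 combinations of site and alternative, lost in 18, gained in 24, changed in sign without a call in 38 and reversed in 2. The Ltbp4 ERE kept p at or under 0.05 in 19 of 20 alternatives (0.00433 to 0.288), the Ltbp2 ERE in 18 of 20 (0.00433 to 0.370), the Ltbp2 site 24.7 kb into the gene in 17 of 19 (0.00649 to 0.710) and Ltbp1 44.0 kb in 7 of 20 (0.00433 to 0.506). Fbln7 past the 3′ end turned from 7.21 to −9.37 without E2 replicate 1 and to −6.05 without that library and fulvestrant replicate 2, and log2 fold enrichment also turned its sign. Without both libraries, with shares over all features in parentheses, 11 of 82 sites (13.4% against 14.9%) ranked higher given E2, 22 (26.8% against 21.6%) were higher and 1 (1.22% against 2.15%) lower with E2 than with E2 plus fulvestrant, 32 (39.02% against 36.5%) were higher with E2 than with vehicle, 5 (6.10% against 4.01%) were present with E2 and not with E2 plus fulvestrant, and 4 loci (40% against 8.68%) had more peaks with E2 than with E2 plus fulvestrant. Absolute ranks grow with the length of a list by construction. Given E2 they gave 0 sites higher (against 0.564%) and 12 lower (13.2% against 6.71%). For E2 against E2 plus fulvestrant they gave 5 higher (5.49% against 2.13%) and 7 lower (7.69% against 9.53%). For E2 against vehicle they gave 0 higher (against 1.29%) and 11 lower (12.1% against 17.3%). A window of 50 kb held 155 sites and gave 7 higher given E2 (4.52% against 4.58%), 2 lower with E2 than with E2 plus fulvestrant (1.29% against 1.56%), and 8 higher than vehicle (5.16% against 5.87%). It gave 0 loci with more peaks with E2 than with E2 plus fulvestrant (against 6.01%). Removing repeat-masked peaks gave 1 site lower given E2 (1.11% against 0.858%) and 2 higher with E2 than with vehicle (2.22% against 4.76%). It gave 0 loci with more peaks with E2 than with E2 plus fulvestrant (against 2.30%). Chaining summits within 100 bp gave 3 sites lower given E2 (2.59% against 1.15%). With E2 against E2 plus fulvestrant it gave 3 higher (2.59% against 3.01%) and 3 lower (2.59% against 2.20%). Against vehicle, E2 was higher at 0 (against 2.76%) and lower at 4 (3.45% against 1.85%). Present with E2 and not with E2 plus fulvestrant were 0 (against 0.592%), and 3 were the reverse (2.59% against 1.20%). Fold enrichment gave 13 sites higher with E2 than with vehicle (14.3% against 14.2%). Asking for 6 libraries gave 3 such sites (5.56% against 8.48%) and 0 present with E2 and not with E2 plus fulvestrant (against 0.621%). A q-value of at most 0.05 gave 0 sites lower with E2 than with vehicle (against 0.335%). It gave 2 present with E2 and not with E2 plus fulvestrant (2.30% against 1.16%), and 1 locus with more peaks given E2 (10% against 2.31%). Counting peaks per 10000 gave 0 loci with all 12 libraries, and was not combined with pairing or with leaving libraries out. The cause of these changes, other than for absolute ranks, was not tested.

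With a replicate block, 3 sites ranked higher given E2 (3.30% against 3.96%) and 2 were lower with E2 than with E2 plus fulvestrant (2.20% against 6.17%). In the same setting 9 were higher with E2 than with vehicle (9.89% against 11.7%). By peak number, 4 loci had more with E2 than with E2 plus fulvestrant (40% against 6.32%), and 1 had more given E2 (10% against 1.54%). For E2 against E2 plus fulvestrant the numbers were taken as pairs. Over all treatments, same-numbered libraries correlated by −0.441 to 0.316, against −0.419 to 0.575 for different numbers, so the other comparisons share only a number.

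Leaving out 1 library at a time gave 3 to 11 sites higher given E2 (11 without E2 replicate 1, 12.6% against 15.2%, and 8 without E2 plus fulvestrant replicate 1, 8.99% against 8.36%). It gave 0 to 2 lower (2 without E2 replicate 1, 2.30% against 1.27%). With E2 against E2 plus fulvestrant, 9 to 21 were higher (21 without E2 replicate 1, 24.1% against 20.97%) and 0 to 5 lower (5 without E2 plus fulvestrant replicate 1, 5.62% against 8.31%). With E2 against vehicle, 4 to 30 were higher (30 without E2 replicate 1, 34.5% against 35.7%) and 1 to 2 lower (shares over all sites 1.07% to 2.53%). Sites present with E2 and not with E2 plus fulvestrant numbered 1 to 5 (5 without E2 replicate 1, 5.75% against 4.19%). The reverse numbered 0 to 1 (1 without E2 plus fulvestrant replicate 1, 1.12% against 1.20%). Loci with more peaks with E2 than with E2 plus fulvestrant numbered 1 to 4 (4 without E2 replicate 1, 40% against 7.37%), and loci with more given E2 0 to 1 (shares over all genes 1.58% to 4.13%). The lists give no reads, so a missing peak at 39.1% relative depth cannot be told apart from absent binding.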
